A study of Oryza sativa Japonica Group with 41 samples.

Results

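Leaves of 30-day-old rice carried H3K9ac peaks at 842 regions that were present in every leaf library and absent from both libraries of untreated 12-day-old seedlings. Peaks of the 8 leaf and 6 seedling H3K9ac libraries with a shared stretch of 1 bp or more were joined, which gave 28979 regions. A region is a member when all 8 leaf libraries and neither control seedling library had a peak in it. Members were 2.91% of all regions and 4.61% of the 18269 regions with a peak in all 8 leaf libraries. Members were thus selected on the peak calls of these 10 libraries, so leaf strength at them and the missing control peaks are descriptions and were not tested. The absence held for control seedlings only. Of the 842 members, 336 (39.9%) had an H3K9ac peak in at least 1 of the 4 libraries from stressed seedlings. None of the 4 had one at 60.1% of members, against 56.2% of the other regions without a control H3K9ac peak. Those other regions can include some formed by stress peaks alone.

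All plants were of the cultivar DongJin. The leaf libraries were made in duplicate at ZT0, ZT6, ZT12 and ZT18, hours of the day counted from lights on, and the same lot of H3K9ac antibody is given for leaves and seedlings. Leaves of 12-day-old seedlings were taken at ZT12 after starvation (48 h of darkness), after submergence (6 h under water) or without treatment, with 2 libraries per condition for each of H3K9ac, Kbu and Kcr, and 1 input library of chromatin without antibody. The labels do not say whether replicates came from separate plants, so p-values measure the spread between these libraries. Leaf and seedling libraries differ in age, in the tissue label and in the set of libraries they belong to, and these differences cannot be told apart. The RNA-seq libraries of the series were not used here.

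H3K9ac is the acetylated form of lysine 9 of histone H3, a mark found around the transcription start of active genes. Butyryllysine (Kbu) and crotonyllysine (Kcr) are longer acyl groups on histone lysines, read here with antibodies that recognise the acyl group rather than one histone position. All of these groups come from acyl-coenzyme A metabolites, and darkness and submergence are treatments that disturb plant metabolism. Starts and ends are given on the MSU7.0 rice assembly. No annotation of that assembly was used here, so regions are named by position and not by gene.

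Each deposited peak has a number of tags, the aligned reads that MACS counted in it with at most 1 tag per position. Its fold enrichment sets those tags against the surrounding background in the same library, and its score, which grows as the MACS p falls, is at least 50. MACS used between 5914314 and 16232431 tags in the leaf libraries, against 10581295 and 11985500 in the control H3K9ac libraries. The leaf library with the fewest tags, ZT18 replicate 2, had about as few as starvation seedlings, yet it had a peak at every member, as the rule requires. MACS set aside 26.8% to 60.3% of the tags it was given as repeats of a position in leaf libraries, against 7.20% and 10.2% in control H3K9ac libraries. The part of this difference in the missing control peaks was not tested. Where a library had several peaks in a region, their tags and lengths were summed and the highest fold enrichment and score were taken. Levels are given as RPM, these tags of a region per 1000000 tags that MACS used in the library.

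Members as a whole were marked at moderate strength in leaves. Their median fold enrichment was 7.35 and 6.99 at ZT0, 8.33 and 6.75 at ZT6, 7.75 and 7.51 at ZT12, and 7.70 and 8.56 at ZT18. In every leaf library this lay below the median of the 17109 regions that also had peaks in both controls. The mean of the 8 library medians was 7.62 ± 0.615-fold (SD, n = 8) for members and 9.82 ± 0.672-fold for those shared regions. Members had 15.7 ± 1.02 RPM and shared regions 22.1 ± 1.01 RPM. The median called length per member was 1051 to 1404 bp in the leaf libraries, against 1148 to 1500 bp at shared regions. The highest score was under 100 at 10.7% ± 5.14 of members and 1.88% ± 1.63 of shared regions, so the weakest members lay near the limit of calling.

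Regions just inside and outside the rule were also set beside each other. The 318 regions with a peak in all 8 leaf libraries and in 1 of the 2 controls had 6.44 ± 0.457-fold (SD, n = 8), below the members in every leaf library. The 332 regions with a peak in 7 leaf libraries and in neither control had 5.48 ± 0.418-fold, again below the members in every library. In RPM the members and the regions with 1 control peak were close, at 15.7 ± 1.02 and 15.1 ± 1.15.

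**Figure D1:**
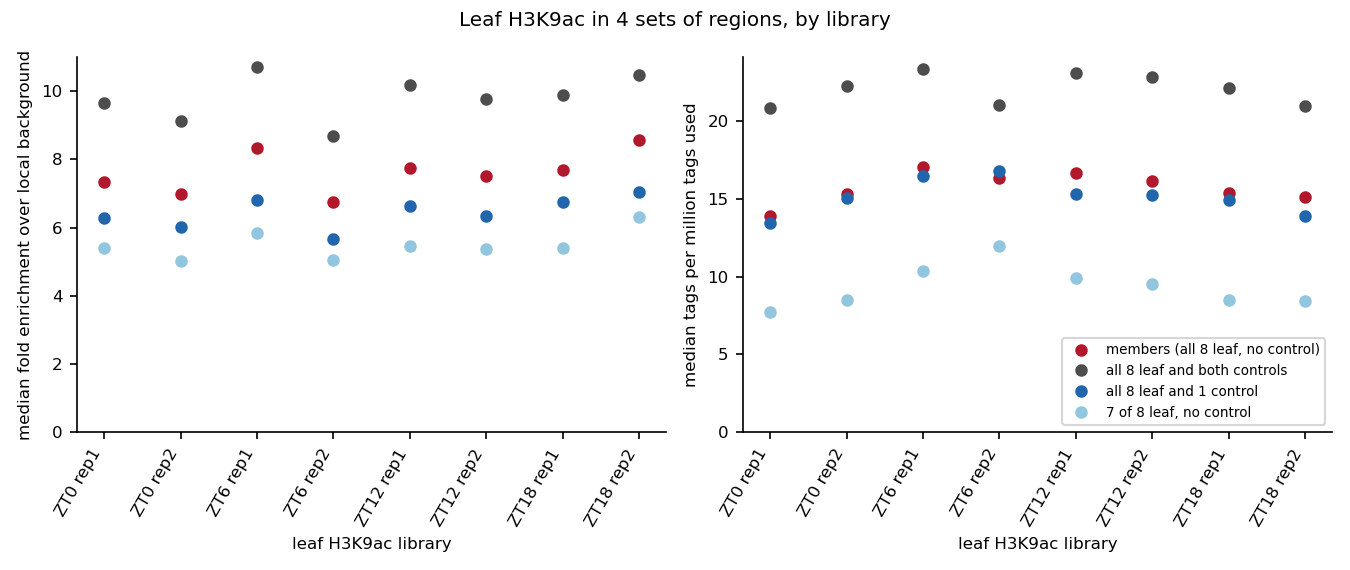
Median fold enrichment (left) and median RPM (right) in each of the 8 leaf H3K9ac libraries, on linear axes from 0. Each point is 1 library and each colour 1 set of regions; members (red) lie below regions shared with both controls (grey) and, in fold enrichment, above both neighbouring sets (blue) in every library.

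The member whose weakest leaf library had the highest fold enrichment was a region of 920 bp at chr1:18490408-18491327. Its fold enrichment was 38.5 and 33.6 at ZT0, 41.0 and 31.0 at ZT6, 36.4 and 34.4 at ZT12, and 33.1 and 39.9 at ZT18. No seedling library of any mark had a peak there, and the nearest control H3K9ac peak was 26355 bp away. It held 17.2 ± 2.26 RPM (SD, n = 8), so it was strong relative to its surroundings rather than in tags.

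The 5 members next in lowest fold were similarly short, at 959 to 1071 bp. They were chr5:9819279-9820349 (lowest 27.9-fold over the 8 libraries), chr11:770040-771008 (23.3-fold), chr8:7089577-7090565 (22.9-fold), chr5:8155951-8156909 (22.8-fold) and chr9:3258284-3259274 (21.8-fold). None of the 6 had a Kbu or Kcr peak in any seedling library, and 4 had no seedling peak at all. The exceptions were both on chromosome 5 and both in starvation H3K9ac, with 33 tags in replicate 2 at chr5:9819279-9820349 and 33 tags in each replicate at chr5:8155951-8156909. None of these 6 members passed the test over the time of day, with adjusted p values between 0.0879 and 0.964 by edgeR.

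Time of day was not used to choose the members. Tags were compared over the 4 time points with edgeR's quasi-likelihood F test in all 18269 regions with a peak in the 8 leaf libraries, with p values adjusted by the Benjamini-Hochberg method over all of them and 0.05 as the limit. Leaf H3K9ac changed over the day at 351 of 842 members (41.7%), against 36.6% of all regions tested and 36.2% of the regions shared with both controls. The range between the highest and the lowest time point, on the log2 scale of the fit, had a median of 0.60 at members, against 0.43 over all regions tested. Among called members, 147 (41.9%) were highest at ZT6, 94 (26.8%) at ZT12, 72 (20.5%) at ZT0 and 38 (10.8%) at ZT18. Among all called regions ZT6 was also the most frequent time, at 32.3%. The lowest point was most often ZT0, at 123 called members (35.0%) and 39.0% of all called regions. ZT12, the time at which the seedlings were taken, was the lowest point of 109 called members (31.1%) and of 23.9% of all called regions. With tags set against the called length, 206 members and 2751 regions were called.

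The member with the largest range was chr3:29983330-29991308, 7979 bp long, where H3K9ac was high in the middle of the day. It had 5.18 and 14.4 RPM at ZT0, 65.9 and 148.7 at ZT6, 45.7 and 47.7 at ZT12, and 5.91 and 7.78 at ZT18. The 2 replicates of ZT6 lay above all others, with a log2 range of 4.05 (edgeR, adjusted p = 0.000689). Another member with a peak at ZT6 was chr1:43114937-43122668. It had 9.25 and 18.4 RPM at ZT0, 136.5 and 180.7 at ZT6, 17.99 and 16.7 at ZT12, and 12.6 and 9.47 at ZT18 (log2 range 3.81, adjusted p = 3.97e-05). At this second member Kbu and Kcr were called in all 12 seedling libraries, at 5.24 to 9.17 RPM, and H3K9ac in none.

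The member chr8:25972732-25977691 was highest at ZT12. It had 6.2 and 4.19 RPM at ZT0, 28.2 and 33.1 at ZT6, 93.0 and 82.4 at ZT12, and 50.6 and 32.6 at ZT18 (log2 range 4.00, adjusted p = 5.91e-05). Its control seedlings, taken at the hour of its maximum in leaves, had no H3K9ac peak, although all 4 control Kbu and Kcr libraries did. After submergence it had 24.0 and 40.7 RPM of H3K9ac, and after starvation no H3K9ac peak. Kbu was also higher after submergence there, with 20.6 and 31.0 RPM, against 14.8 and 12.97 in control seedlings (log2 1.07 ± 0.17, SE, edgeR, adjusted p = 0.00829).

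In the other 3 members ZT12 was the lowest of the 4 time points. H3K9ac at chr4:26615371-26619450 was 54.1 and 62.1 RPM at ZT0, 29.4 and 43.8 at ZT6, 3.96 and 4.52 at ZT12, and 28.1 and 14.0 at ZT18 (log2 range 3.87, adjusted p = 0.00022). At chr7:27787559-27793169 it was 52.4 and 119.6 at ZT0, 48.8 and 64.3 at ZT6, 7.11 and 6.35 at ZT12, and 12.8 and 13.4 at ZT18 (3.78, adjusted p = 0.00019). At chr6:31025402-31029819 it was 109.4 and 122.9 at ZT0, 176.6 and 189.9 at ZT6, 9.89 and 17.8 at ZT12, and 20.5 and 12.7 at ZT18 (3.77, adjusted p = 5.05e-05). The values at ZT12 lay below every value at ZT0 and ZT6 in all 3, and at the member on chromosome 6 they overlapped those at ZT18. None of these 3 members had a control peak of Kbu or Kcr. The nearest control H3K9ac peak was 1274 bp from the member on chromosome 4, 335 bp from that on chromosome 7 and 3198 bp from that on chromosome 6. With tags set against the called length, the log2 range of the 6 members was 1.27 to 2.58, lowest at the member on chromosome 3, and each was still called by edgeR.

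**Figure D2:**
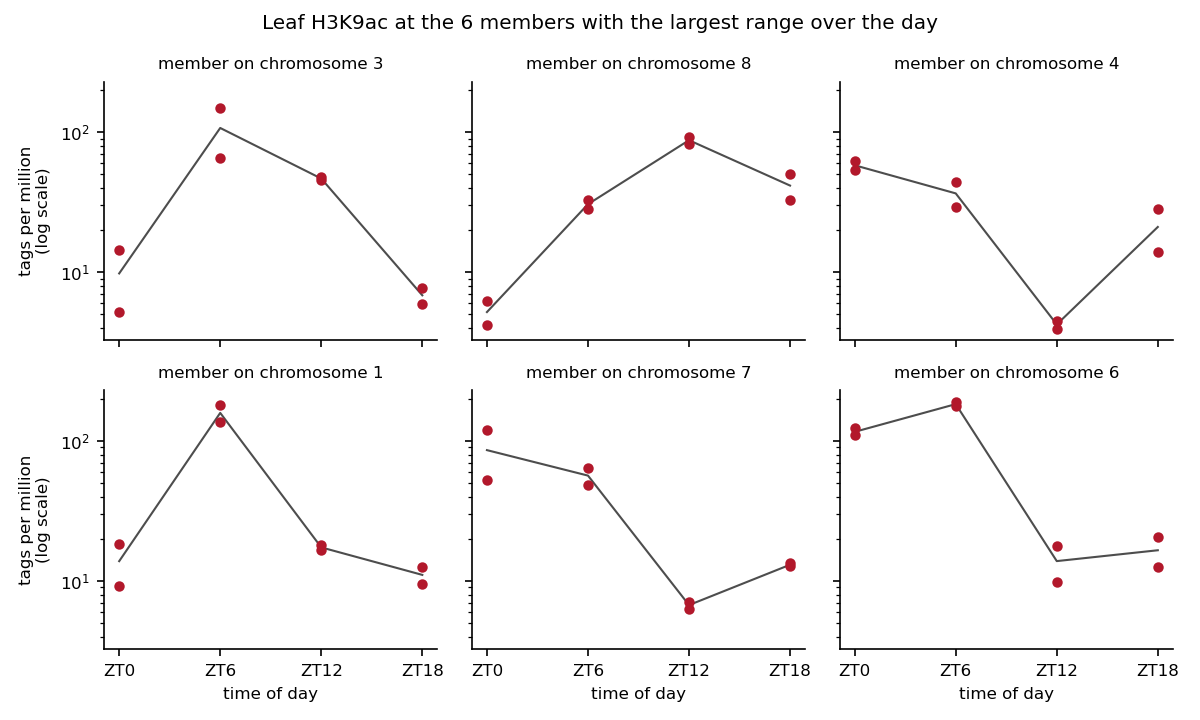
H3K9ac in RPM (log axis) at ZT0, ZT6, ZT12 and ZT18 for the 6 members with the largest range over the day. Points are the 2 replicates and lines join their means; the members on chromosomes 3 and 1 are highest at ZT6, that on chromosome 8 at ZT12, and those on chromosomes 4, 7 and 6 are lowest at ZT12.

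Whether these regions already carried the longer acyl marks in seedlings was read from the control Kbu and Kcr libraries, which the rule did not use. Kbu peaks lay at 321 and 338 members (38.1% and 40.1%) in the 2 control libraries, and Kcr peaks at 306 and 354 (36.3% and 42.0%). At the 5205 other regions without a control H3K9ac peak the shares were higher in each library, 47.6% and 48.7% for Kbu and 44.5% and 51.8% for Kcr. At the regions with both control H3K9ac peaks they were at least 99.0%. All 4 control libraries had a peak at 239 members (28.4%), against 36.9% of the other regions without a control peak. None of the 4 had one at 423 members (50.2%), against 41.7%. The other regions can include some formed by stress H3K9ac peaks alone, and their part in these differences was not tested. Kbu in both controls with Kcr in neither was seen at 10 members (1.19%), against 0.826% of those other regions, and the reverse at 12 (1.43%), against 1.13%. Without control H3K9ac replicate 2 in the rule, 377 of 1029 members (36.6%) had all 4 control Kbu and Kcr peaks, and without replicate 1, 333 of 973 (34.2%).

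Calls did not always agree between replicates, also where 1 replicate had many tags. In control Kcr, 277 members had a peak in both replicates and 106 in 1 of them. In 36 of those 106, the replicate with a peak held more tags than 127.5, the median of the weaker replicate where both had one. The highest such count was 1616 tags, at chr7:24346718-24353518. In control Kbu, 89 members had a peak in 1 replicate, and 28 of them lay above the like median of 148.5 tags. Control H3K9ac tags outside the called peaks were not measured.

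Members that were bare of every mark in seedlings formed the larger extreme. No peak of H3K9ac, Kbu or Kcr lay at 321 members (38.1%) in any of the 18 seedling libraries, against 25.0% of the other regions without a control peak. Among those other regions, any formed by stress H3K9ac peaks alone cannot be bare, which can only lower their share by construction. A peak in all 16 seedling libraries other than the control H3K9ac ones lay at 60 members (7.13%), against 2.34%. In leaves the bare members had median fold enrichments of 9.42 to 11.7 in the 8 libraries, and the 239 members with all 4 control Kbu and Kcr peaks had 5.77 to 6.86. These ranges did not overlap. In RPM the 2 classes were closer, at 15.9 ± 0.991 and 13.8 ± 1.15 (SD, n = 8). In every leaf library the median fold of bare members was above that of the regions shared with both controls, 8.69 to 10.7. Their median RPM was below that of the shared regions, 22.1 ± 1.01. Median called lengths per region were 1153 ± 73.8 bp in bare members and 1243 ± 138 bp in those with all 4 control peaks.

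**Figure D3:**
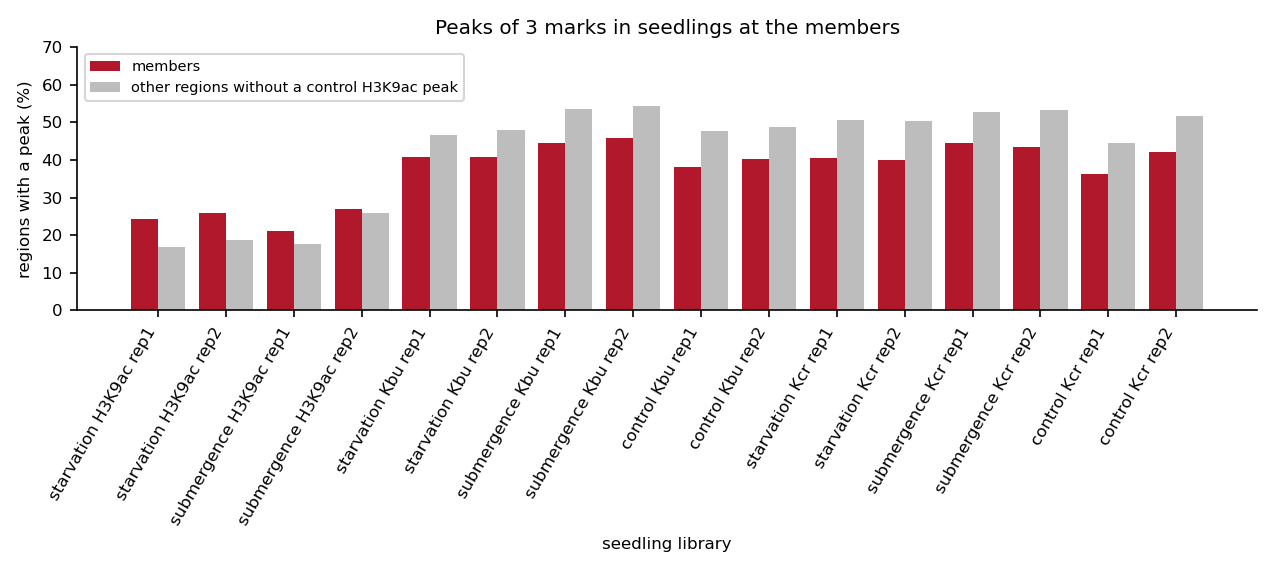
Share of members (red) and of the other regions without a control H3K9ac peak (grey) that had a peak in each of 16 seedling libraries, as bars from 0. For H3K9ac after stress the red bars reach 21.0% to 27.0% and lie above the grey bars; for Kbu and Kcr they reach 36.3% to 45.8% and lie below them.

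H3K9ac appeared in stressed seedlings at a minority of members. Starvation libraries had a peak at 205 and 217 members and submergence libraries at 177 and 227. Both starvation libraries had one at 172 members (20.4%), against 12.6% of the other regions without a control peak. Both submergence libraries had one at 161 members (19.1%), against 13.3%. All 4 stress libraries had one at 87 members (10.3%), against 3.69%, and none at 506 (60.1%), against 56.2%. A peak in both starvation libraries and in neither submergence library was seen at 54 members (6.41%), against 6.80% of the other regions without a control peak, and the reverse at 50 (5.94%), against 7.90%. Neither of these shares was above that of the other regions. The regions they are set against also lack a control peak, and the counts are descriptions. Regions formed by stress H3K9ac peaks alone, with no leaf peak, can only raise the stress shares of that set, here and in the next paragraph. The counts with both libraries of a stress moved with either control replicate. Without control replicate 2 in the rule they were 265 for starvation and 273 for submergence, of 1029 members (25.8% and 26.5%). Without control replicate 1 they were 249 and 251, of 973 members (25.6% and 25.8%).

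Stress H3K9ac was also counted by the acyl marks of control seedlings. Of the 239 members with all 4 control Kbu and Kcr peaks, 85 (35.6%) had H3K9ac in both starvation libraries and 106 (44.4%) in both submergence libraries. Of the 423 members with none, 42 (9.93%) had it after starvation and 12 (2.84%) after submergence. The other regions without a control peak had shares of 14.6% and 10.7% for starvation and 25.2% and 3.82% for submergence, with all 4 acyl peaks and with none. Peaks of the 3 marks were called in separate libraries from the same kind of plants, and regions are not independent replicates.

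At the 87 members with peaks in all 4 stress libraries, leaf medians were above those of stressed seedlings. They were 17.5 to 22.9 RPM in the leaf libraries, against 13.1 and 13.1 after starvation and 13.6 and 13.4 after submergence. The rule chose members by their leaf peaks, so this is a description. Regions shared with both controls had the same direction where peaks were called. Their medians were 20.8 to 23.3 RPM in leaf libraries, 19.7 and 19.6 after starvation, and 18.9 and 18.5 after submergence. At chr4:30937094-30943946 the 4 stress libraries were within the leaf range. This member had 43.9 to 120.5 RPM in leaves, 111.9 and 104.0 after starvation, and 97.8 and 89.3 after submergence. The member chr7:24346718-24353518 had 74.6 to 113.2 in leaves, 108.3 and 117.3 after starvation, and 96.5 and 95.4 after submergence. Its leaf peaks were only 2.89- to 4.43-fold over local background and the nearest control H3K9ac peak was 449 bp away. Both members thus held many tags in every H3K9ac library with a call, although neither control library had one.

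At chr1:27321765-27328775 H3K9ac was 44.5 to 156.9 RPM in leaves, 91.6 and 79.5 after starvation, and 70.002 and 66.8 after submergence. At chr5:24449068-24455262 it was 30.4 to 67.9 in leaves, 91.98 and 83.0 after starvation, and 46.6 and 47.6 after submergence. Of these 4 members, that on chromosome 5 was the one where both starvation libraries exceeded every leaf library. Just before it lay chr5:24441759-24447832, where H3K9ac was called in leaves and after starvation. It had 60.8 to 114.7 RPM in leaves and 75.5 and 71.9 after starvation, with no H3K9ac peak after submergence and no control peak of any mark. Kbu and Kcr were called there in all 8 libraries of stressed seedlings, at 16.9 to 36.7 RPM. The other member named for starvation alone, chr7:1121753-1123489, had 29.0 to 43.0 in leaves and 21.0 and 19.8 after starvation. For submergence alone, chr1:27380380-27388508 had 10.6 to 27.4 RPM in leaves, below the 52.8 and 55.0 after submergence. A control H3K9ac peak lay 875 bp from it.

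The 2 stresses were compared directly in the 19185 regions with an H3K9ac peak in all 4 stress libraries, which include 87 members. The test called 32 members (36.8%), against 33.1% of all regions. H3K9ac was higher after submergence than after starvation at 17 members (19.5%), against 17.2% of all regions tested, and lower at 15 members (17.2%), against 15.9%. DESeq2 called 7 of the 87 members and 616 of the 19185 regions, and the rule of 1.5-fold in both replicates 20 members and 1500 regions. The median log2 difference was 0.04 at members and 0.00 over all regions. Counting tags against the called length gave 1 member higher and 34 lower, and 334 regions higher and 7992 lower over all, with a median shift of −0.24. With the tags MACS used as library sizes, 16 members were higher and 21 lower. The directions of the single members below are therefore given with their values under that setting where it mattered.

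At chr7:22353034-22357105 H3K9ac was 19.8 and 23.3 RPM after submergence, against 9.06 and 9.72 after starvation. The log2 difference was 1.28 ± 0.13 (SE, edgeR, adjusted p = 0.000968), and −0.04 when tags were set against the called length. At chr3:5159091-5163174 it was 16.8 and 27.6 after submergence, against 10.7 and 9.88 after starvation (1.22 ± 0.28, adjusted p = 0.0158). This second call was lost without starvation replicate 2 (adjusted p = 0.057) and under the called length. The members with the largest falls kept their calls under both settings. At chr5:18113451-18122454 H3K9ac was 17.4 and 15.9 after submergence, against 36.4 and 58.3 after starvation (−1.47 ± 0.21, adjusted p = 0.0028). At chr8:4315850-4319005 it was 9.0 and 12.5 after submergence, against 24.1 and 26.7 after starvation (−1.15 ± 0.15, adjusted p = 0.00208).

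Changes of Kbu under stress could be tested at the 226 members with a Kbu peak in all 6 libraries, and of Kcr at the 221 with a Kcr peak in all 6. These members passed through peaks in every condition, so they leave out any region that gained or lost its peak. Both stresses were set against the same control libraries. Kbu changed after starvation at 81 members (35.8%), against 25.6% of 23336 regions tested. It was higher at 36 members (15.9%), against 10.5%, and lower at 45 (19.9%), against 15.1%. After submergence Kbu changed at 28 members (12.4%), against 10.1%. It was higher at 19 members (8.41%), against 4.96%, and lower at 9 (3.98%), against 5.15%. Kcr changed after starvation at 15 members (6.79%), against 3.79% of 23261 regions tested. It was higher at 9 members (4.07%), against 1.37%, and lower at 6 (2.71%), against 2.42%. After submergence Kcr changed at 5 members (2.26%), against 1.9%. It was higher at 4 members (1.81%), against 1.22%, and lower at 1 (0.452%), against 0.679%.

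The split between higher and lower depended on the scaling. With the tags that MACS used as library sizes, the median log2 change over all regions moved to 0.14 for Kbu and 0.17 for Kcr after starvation, and to −0.18 and −0.13 after submergence. Kbu after starvation then gave 56 members higher and 31 lower, and Kbu after submergence 16 higher and 27 lower. Kcr after starvation gave 21 higher and 2 lower. Against the called length Kcr after starvation gave 2 higher and 2 lower. Against the called length, Kbu after submergence gave 115 higher and 0 lower (DESeq2, without the length, gave 10 and 2), and Kbu after starvation 37 higher and 18 lower. No direction is therefore given for the members as a group. Against the called length the count over all regions also rose for Kbu after submergence, as given under processing below. Counts by direction over all regions are not given for these settings, so the member counts are not read as particular to the members.

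The largest rise of Kbu after starvation was at chr11:17297580-17301871, and Kcr rose there too. Kbu was 20.8 and 24.2 RPM after starvation, against 7.17 and 7.18 in control seedlings (log2 1.51 ± 0.11, edgeR, adjusted p = 0.000123). Kcr was 21.8 and 16.2 after starvation, against 5.28 and 7.89 in control seedlings (1.36 ± 0.17, adjusted p = 0.00681). Starvation H3K9ac was called there as well, at 11.9 and 10.2 RPM, while submergence and control seedlings had no H3K9ac peak. All 3 marks were thus called at this member after darkness. Both of its calls held under every alternative run.

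The second rise of Kbu after starvation was at chr10:9337571-9339826, with 12.5 and 16.6 RPM after starvation, against 5.32 and 6.85 in control seedlings (1.12 ± 0.16, adjusted p = 0.00233). Kcr rose after starvation at chr1:4965878-4970321, with 15.9 and 18.2, against 5.28 and 6.21 in control seedlings (1.41 ± 0.15, adjusted p = 0.00417). No stress library had an H3K9ac peak at this last member, which lay 944 bp from a control H3K9ac peak. Its Kcr change was 0.18 against the called length (adjusted p = 0.471).

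Kbu fell after starvation at chr4:25926993-25930024, with 6.57 and 5.11 RPM, against 19.6 and 15.0 in control seedlings (−1.72 ± 0.31, adjusted p = 0.00617). It fell at chr3:23780277-23786219, with 4.12 and 4.73, against 14.4 and 9.75 in control seedlings (−1.60 ± 0.34, adjusted p = 0.0116). Kcr fell at chr12:16002329-16005940, with 4.28 and 4.62 after starvation, against 9.98 and 10.8 in control seedlings (−1.38 ± 0.15, adjusted p = 0.00467). The call on chromosome 3 was lost without control replicate 1 (adjusted p = 0.0573), without starvation replicate 1 (0.0608) and without starvation replicate 2 (0.0655). That on chromosome 4 was lost without starvation replicate 2 (0.0523). Against the called length all 3 calls were lost, with log2 changes of −0.34 on chromosome 4, 0.03 on chromosome 3 and −0.43 on chromosome 12.

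After submergence Kbu rose at chr5:17593225-17598528, with 15.4 and 13.8 RPM, against 5.38 and 7.18 in control seedlings (1.41 ± 0.17, adjusted p = 0.00284). Kbu was also called higher at this member after starvation (1.04 ± 0.17, edgeR, adjusted p = 0.00397). The direct contrast of the 2 stresses for Kbu was not called (0.37, adjusted p = 0.0986). Kcr was called higher after submergence (0.94 ± 0.17, adjusted p = 0.0385). H3K9ac was also called there in all 4 stress libraries, at 18.6 and 22.0 after submergence and 16.2 and 18.8 after starvation. Kbu rose at chr11:3019207-3022145, with 16.2 and 12.0 after submergence, against 6.94 and 7.77 in control seedlings (1.13 ± 0.17, adjusted p = 0.00718; 0.35 and adjusted p = 0.0611 against the called length). At this member H3K9ac was called after submergence only, with 44 and 47 tags.

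Kcr rose after submergence at chr10:11623297-11625000, with 9.86 and 10.2 RPM, against 4.89 and 4.70 in control seedlings (1.19 ± 0.16, adjusted p = 0.0155). It rose at chr3:4659317-4665345, with 39.1 and 46.2, against 18.1 and 30.8 in control seedlings (0.94 ± 0.15, adjusted p = 0.0273). The first of these calls was lost without control replicate 2 (adjusted p = 0.0758) and without submergence replicate 1 (0.0736). The second was lost without either submergence replicate (0.0816 and 0.0802). Against the called length both were lost, at 0.29 and 0.52. At chr3:4659317-4665345 Kcr was also called higher after starvation (0.73 ± 0.15, edgeR, adjusted p = 0.0412). The direct contrast of the 2 stresses for Kcr was not called there (0.21, adjusted p = 0.37).

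Falls after submergence were led by chr3:3325259-3332299, where Kbu was 14.9 and 15.1 RPM, against 37.1 and 36.1 in control seedlings (−1.10 ± 0.09, adjusted p = 0.000439), and against the called length the change was 0.21. The nearest control H3K9ac peak was 289 bp from this member. At chr7:22362227-22364180 both acyl marks were lower after both stresses. Kbu there was 22.1 and 24.3 after starvation and 17.9 and 17.6 after submergence, against 37.6 and 41.9 in control seedlings. The log2 changes of Kbu were −0.92 ± 0.07 (adjusted p = 0.000172) and −0.98 ± 0.07 (adjusted p = 0.000438). Kcr was 20.3 and 22.3 after starvation and 15.4 and 18.1 after submergence, against 39.0 and 37.0 in control seedlings. The log2 changes of Kcr were −1.01 ± 0.12 (adjusted p = 0.00676) and −1.07 ± 0.13 (adjusted p = 0.0105). H3K9ac was called at this member in all 4 stress libraries, at 17.6 to 20.7 RPM, and in neither control. The call of Kcr after submergence was lost without submergence replicate 1 (adjusted p = 0.0552). Against the called length the changes were 0.15 for Kbu after submergence, 0.09 for Kcr after starvation and 0.16 for Kcr after submergence, and none of these 3 passed the test.

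The share of members differed between chromosomes, which was not tested. Chromosomes 11 and 12 held 213 members (25.3%), against 12.0% of the regions with a peak in all 8 leaf libraries. On these 2 chromosomes 9.73% of such regions were members, against 3.91% on the other 10, where the highest share was 6.18% on chromosome 8 and the lowest 2.66% on chromosome 2. Of the 321 members without any seedling peak, 123 (38.3%) were on chromosomes 11 and 12. The reverse class, 852 regions with a peak in both controls and in no leaf library, had 101 regions (11.9%) on chromosome 11 and 51 (5.99%) on chromosome 12, against 5.98% and 6.00% of the regions with a peak in all 8 leaf libraries. Chromosome 6 held more of that class than any other, 137 (16.1%).

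**Figure D4:**
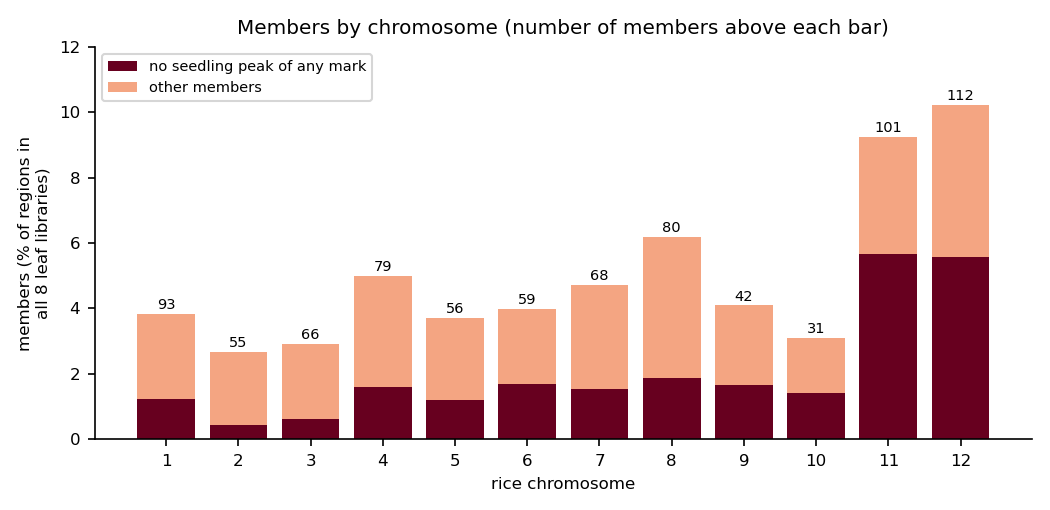
Members as a percentage of the regions with a peak in all 8 leaf libraries on each rice chromosome, as bars from 0, with the number of members above each bar. The dark part stands for members without a seedling peak of any mark; the bars of chromosomes 11 and 12 reach 9.25% and 10.2% and the others 2.66% to 6.18%.

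The median member lay 5083 bp from the nearest control H3K9ac peak, against 4696 bp for the other regions without one. Within 1 kb of a control peak lay 105 members (12.5%), against 10.6%, and over 10 kb away 251 (29.8%), against 24.1%. For the members without any seedling peak the median distance was 8495 bp. Input peaks overlapped 6 members (0.713%), against 1.06% of the other regions without a control peak.

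Most members stood alone. Among the regions with a peak in all 8 leaf libraries, 625 members had no member as neighbour, 63 runs held 2 and 10 runs held 3. Of 378 windows of 1 Mb, 12 held 8 or more members and together 118, and 10 of these 12 windows were on chromosomes 11 and 12. The longest chain of members with gaps of at most 100 kb, chr12:8496810-8854259, held 11 members among 16 regions with all 8 leaf peaks. Of its members 9 had no seedling peak of any mark. The windows above and the unbroken runs below were singled out after their values were seen.

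The longest unbroken run was 12 members at chr12:6139608-6659911, in 520304 bp. Every region there with a peak in all 8 leaf libraries was a member. The first member had Kbu and Kcr in all 12 seedling libraries of these marks and H3K9ac in all 4 stress libraries. The second had Kbu or Kcr in 10 of the 12. The eighth had H3K9ac in both starvation libraries only, and the other 9 had no seedling peak. Their leaf peaks were not uniformly weak, with mean fold enrichments over the 8 libraries of 5.77 to 17.9. The whole stretch was not bare in seedlings. The 2 control H3K9ac libraries had 5 and 4 peaks in it, all outside the members, and the Kbu and Kcr libraries had 15 to 24, of which at most 2 lay at members.

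**Figure D5:**
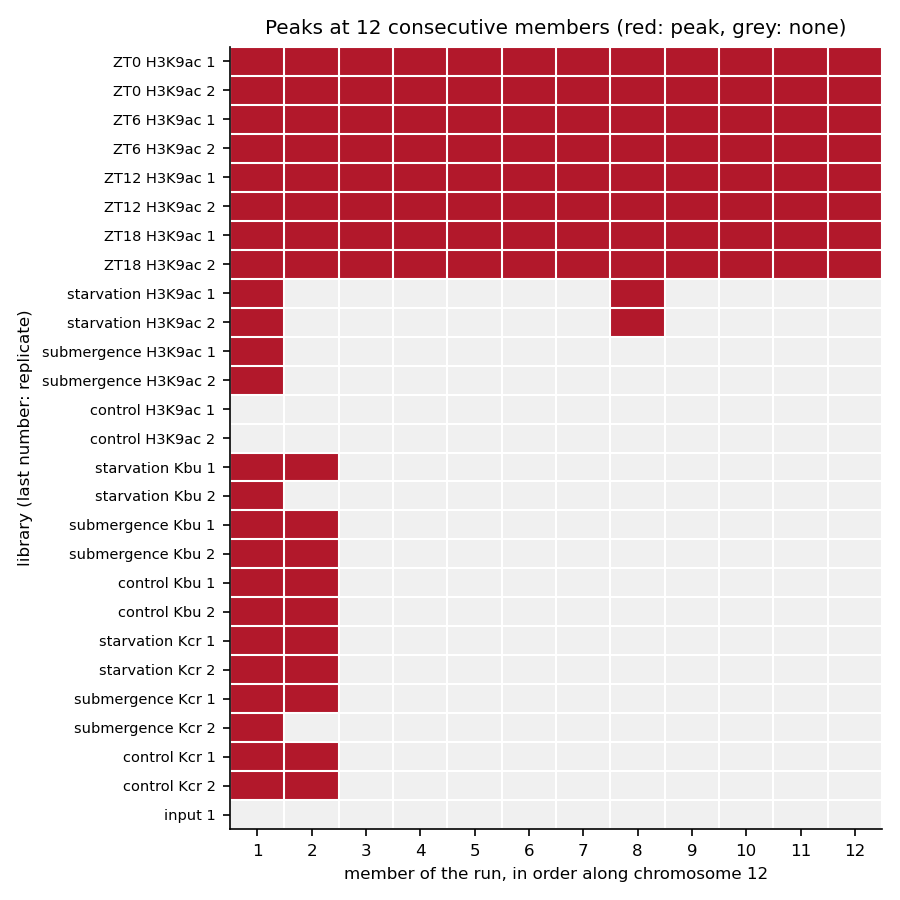
Presence (red) or absence (grey) of a called peak at each of the 12 consecutive members on chromosome 12 (columns, in genome order) in the 8 leaf, 18 seedling and 1 input libraries (rows). All 8 leaf rows are red throughout, the 2 control H3K9ac rows are grey throughout, and 9 of the 12 columns are grey in every seedling row.

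A run of 9 members lay at chr11:27216844-27345135, of which 8 had no seedling peak of any mark. Its mean leaf fold enrichments were 6.51 to 25.1, highest at chr11:27250750-27251738, where the 8 leaf libraries had 96 to 265 tags. The same stretch held 3 regions with peaks in both controls and in no leaf library. The run of 12 members on chromosome 12 held 2 such regions and the chain of 11 members held 1. At chr11:24437006-24481313 a run of 5 members had no seedling peak of any mark at any of them. No H3K9ac peak of any seedling library lay in that stretch.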

How the data were processed

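As the study's methods state, low-quality reads were filtered out by the authors (Trimmomatic), the rest placed on MSU7.0 (Bowtie2 2.2.5), duplicates taken out (SAMtools 0.1.19) and peaks called in each library (MACS 1.4.2). Per the file headers no control library was used, the band width was 300 bp, the p cutoff 1e-05 and the regional lambda 10000 bp. The deposited tag counts are not normalized. The deposited fold enrichment is a ratio within a library. The deposited score is the MACS p on a negative log scale. Columns of values left out numbered 0. Members and lists were chosen with earlier results of these data known.

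Peaks were joined in Python 3.11.15 with numpy 2.4.6 and pandas 2.3.3, and drawn with matplotlib 3.10.9. Presence was an overlap of 1 bp or more. For tests each peak went to the region it overlapped most, and its tags were tested with edgeR 4.0.16 (quasi-likelihood F test; R 4.3.3, limma 3.58.1), TMM factors on summed peak tags and Benjamini-Hochberg adjustment, over regions with a peak in every library of the fit. The ± of a log2 change is an SE, worked out as the size of the change divided by the square root of its F statistic. The scripts were tested on simulated counts. Members had a median of 89.5 to 257 tags per leaf library, which sets their counting error. Regions that were not called have no value in the lists.

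Named regions were the 6 members with the highest lowest leaf fold and the 6 called members with the largest range over time. In each other test they were the 2 called members with the largest rise and the 2 with the largest fall, with the same direction in both replicates, and Kcr after submergence had only 1 fall. Members with stress H3K9ac were named by the tags of their weakest library, 4 for both stresses and 2 for each alone, and the longest chain with gaps of at most 100 kb was named. Alternatives were a score of at least 100, joining by 50% overlap, regions without input peaks, DESeq2 1.42.0, tags used by MACS as library sizes, called length as an offset, at least 50 tags in every library, a replicate block, a rule of 1.5-fold in both replicates, and each library left out. Leaving out Kbu, Kcr or stress libraries in the counts of peaks, and counting Kbu and Kcr peaks at the region they overlap most, were chosen after seeing the data.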

Additional observations from a re-analysis of the deposited data

Results flagged for a closer look

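The direct contrast of submergence and starvation, on the same edgeR fits, differed at 14 of the named members, 9 of them named for a change of Kbu or Kcr. Of the 226 members tested for Kbu, 55 were called higher after submergence and 23 higher after starvation. Of the 221 tested for Kcr, 27 and 4 were. The share called over all regions is not given here, so these counts are not read as particular to the members. At chr11:17297580-17301871 the log2 difference, submergence minus starvation, was −1.64 for Kbu (adjusted p = 0.000135) and −1.69 for Kcr (adjusted p = 0.00283). It was −0.82 for Kbu at chr10:9337571-9339826 (adjusted p = 0.00703), −1.01 for Kbu at chr3:3325259-3332299 (adjusted p = 0.000269) and −1.17 for Kcr at chr1:4965878-4970321 (adjusted p = 0.00474).

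The difference was above 0 at the others of these 9. It was 1.26 for Kbu (adjusted p = 0.0211) and 0.62 for Kcr (adjusted p = 0.0414) at chr4:25926993-25930024, 1.44 for Kbu at chr3:23780277-23786219 (adjusted p = 0.0164) and 1.07 for Kbu at chr11:3019207-3022145 (adjusted p = 0.00283). It was 1.53 for Kcr at chr12:16002329-16005940 (adjusted p = 0.00233), and 0.91 for Kbu (adjusted p = 0.0111) and 0.63 for Kcr (adjusted p = 0.032) at chr10:11623297-11625000. Among members named for other reasons it was 1.29 for Kbu at chr8:25972732-25977691 (adjusted p = 0.00138), 0.86 for Kcr at chr1:43114937-43122668 (adjusted p = 0.0122) and 0.63 for Kbu at chr7:22353034-22357105 (adjusted p = 0.0118). It was −0.48 for Kbu at chr3:5159091-5163174 (adjusted p = 0.00481) and −0.32 for Kbu at chr7:1121753-1123489 (adjusted p = 0.0223). Most of these contrasts were read at members already named for a change against control, and the scaling that moved the counts above bears on them too.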

How the results depend on the processing

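The number of members was 836 to 1016 under the 3 other ways of reading the peaks and 847 to 1029 with a library left out. Members with all 4 control Kbu and Kcr peaks numbered 239 to 377 with a library left out. Those with both starvation H3K9ac peaks numbered 175 to 265 and those with both submergence peaks 161 to 273, the highest each time without control H3K9ac replicate 2. Mean leaf fold was 7.10 to 7.67. The test over time called 238 to 370 members with a library left out, and 206 against the called length. Left-out libraries gave 36 to 71 members for Kbu after starvation (from all libraries 81; 48 without control replicate 1, 42 and 36 without starvation replicates 1 and 2) and 10 to 22 for Kbu after submergence (from all libraries 28; 18 without control replicate 2, 13 and 10 without submergence replicates 1 and 2). They gave 5 to 7 for Kcr after starvation (from all libraries 15; lower without any of the 4 libraries) and 1 to 6 for Kcr after submergence (from all libraries 5; 3 without control replicate 1, 1 and 3 without submergence replicates 1 and 2). They gave 24 to 27 for the 2 stresses (from all libraries 32). DESeq2 called 33 and 12 members for Kbu after starvation and submergence and 7 for the 2 stresses. The 1.5-fold rule gave 27 and 10 for Kbu, 2 for Kcr after submergence and 20 for the 2 stresses. MACS library sizes gave 43 for Kbu after submergence, 23 for Kcr after starvation and 8 for Kcr after submergence. Against the called length the counts were 115, 4 and 0 in the same order; at 0 for Kcr after submergence, DESeq2 called 6 and edgeR's unadjusted p was under 0.05 at 68 members without the offset. That setting also reversed Kbu after starvation at chr3:23780277-23786219 (0.03), Kbu after submergence at chr3:3325259-3332299 (0.21) and chr7:22362227-22364180 (0.15), and Kcr at the last region after starvation (0.088) and submergence (0.16). It reversed H3K9ac at chr7:22353034-22357105 (−0.036). Over all regions tested, the called length gave 2751 against 6692 over time, 2793 against 5963 for Kbu after starvation, 6456 against 2358 for Kbu after submergence, and 583 against 882 and 44 against 441 for Kcr. DESeq2 gave 1818, 615, 491 (Kcr after starvation) and 616 (stresses, against 6356), the 1.5-fold rule 1026, 733, 472 and 1500, MACS library sizes 3888 for Kbu after submergence, and the block 453 and 167 for Kcr. The cause of these moves was not tested. The replicate block gave 9 members for Kcr after starvation and 3 after submergence, and changed no other count of members by over 1.5 times. Replicate 1 deviations correlated between groups at −0.113 to 0.243 in leaves, 0.05 to 0.22 in Kbu, −0.186 to 0.0759 in Kcr and 0.119 in stress H3K9ac, so the numbers were not taken as pairs. Of 247 values of named members under alternatives, 224 kept direction and call, 17 lost the call and 6 reversed. Regions without a called peak have no tags, which limits every statement of absence.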
